A study of Macaca mulatta with 52 samples.

Results

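SoLo and SPIA are kits that turn very small amounts of RNA into sequencing libraries, and both were applied to individual embryos of the rhesus monkey (Macaca mulatta) collected before implantation, by their titles the same embryos. The comparison covered 26 libraries, 13 of each kit, out of 49 libraries that could be matched to the labels of 52 samples. The SoLo libraries came from 4 8-cell embryos, 3 morulas and 6 expanded blastocysts, and the SPIA libraries came from the same numbers at each stage. Libraries were joined by stage, title code and embryo number, which gave 11 exact pairs. The pair of expanded blastocyst 111715_02 is in doubt: deviations from the group means correlated at -0.0197 between its libraries, and above 0.1 in the other 10 pairs. Its SoLo library correlated at 0.842 with the SPIA library of the same title and at 0.914 with that of another embryo of the stage. That alone does not set it apart, since the own partner was the closest in only 6 of 11 pairs. The 2 SoLo libraries of title code 111215, both of expanded blastocysts, had no embryo number in the count table, so they were set against the 2 SPIA libraries of that code as a group. All embryos came from in vitro fertilisation of oocytes that had matured in females given recombinant human FSH and then hCG. They were freed of cumulus cells by pipetting and cultured in HECM-9 medium, some of them with the hormone relaxin. The labels do not say which embryos received relaxin, nor how the RNA of an embryo was divided between the kits.

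Both kits started from total RNA extracted with a DNase step. In SPIA (Ovation RNA-Seq System v2), cDNA is primed by chimeric primers, and copies are then made linearly from the same template at a constant temperature by a strand-displacing polymerase; the product is sheared, treated with S1 nuclease and made into a library. In SoLo (Ovation SoLo), adaptors are ligated to the cDNA and the library is amplified, fragments of ribosomal RNA are then removed with targeted InDA-C primers, and a second amplification follows. An RNA without a poly(A) tail, such as that of a replication-dependent histone gene, can enter a library only where priming does not need the tail.

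Totals ranged from 5.70 to 10.6 M (mega) counts in SoLo libraries and from 5.06 to 20.6 M in SPIA libraries. No libraries of a group agreed within sampling noise. The embryo gene POU5F1 was detected in every library, between 6.71 and 283 CPM (counts per M, scaled by TMM). The 8-cell gene ZSCAN4 had 320 to 412 CPM in the 8-cell SoLo libraries and 213 to 327 CPM in the 8-cell SPIA libraries. KRT18, a keratin of trophectoderm, had 729.6 to 1240.2 CPM in SoLo and 191 to 688 CPM in SPIA expanded blastocysts. Markers of cumulus and granulosa cells, summed over 20 identifiers, reached 2677 CPM in SoLo and 3399 CPM in SPIA 8-cell libraries, and at most 189 CPM in SoLo and 151 CPM in SPIA libraries of the later stages. The high values belonged to both libraries of the 8-cell embryos 020816_06, 020816_07 and 112815_02, and edgeR called no cumulus marker between kits, or 1 of 17 tested, higher in SoLo, with the embryo as a replicate block.

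The kits differed for 3459 of 14873 identifiers tested, or 23.3%, by edgeR's quasi-likelihood test with stage in the model and an adjusted p under 0.05. Of these, 1760 (11.8%) were higher in SoLo and 1699 (11.4%) were lower. Under the alternatives the split ran from 1128 higher and 1454 lower with a stricter filter on low counts to 2664 higher and 1920 lower in limma voom, and it was 1264 higher and 1453 lower over the 11 exact pairs alone. The large differences were mostly on the SoLo side, since 673 of the higher and 100 of the lower identifiers differed by at least 3 on the log2 scale. An identifier silent in 1 kit could, however, pass the filter on low counts through the other kit alone. Among those tested, 69 were at 0 in every SPIA library and 0 were at 0 in every SoLo library. The counts do not fix the size of such a fold change. The stricter filter, which asks for counts in both kits, had more identifiers lower than higher. Named identifiers had 9.78% higher and 12% lower of 11632 tested, and identifiers without a name had 19.2% higher and 9.35% lower of 3241. All 13 SoLo libraries were above all 13 SPIA libraries for 167 identifiers (1.12%) and below them for 72 (0.484%). Among the 3459 called identifiers, 1268 had the same sign in all 11 exact pairs. The median log2 fold change over all identifiers tested was 0.11, SoLo over SPIA. With the embryo as a block in the model, 2543 of the 3414 called identifiers that were tested there were still called, all in the same direction. Fold changes compare the level of a gene between the kits, by the titles in the same whole embryos. They do not describe its level per cell or per cell type.

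**Figure D1:**
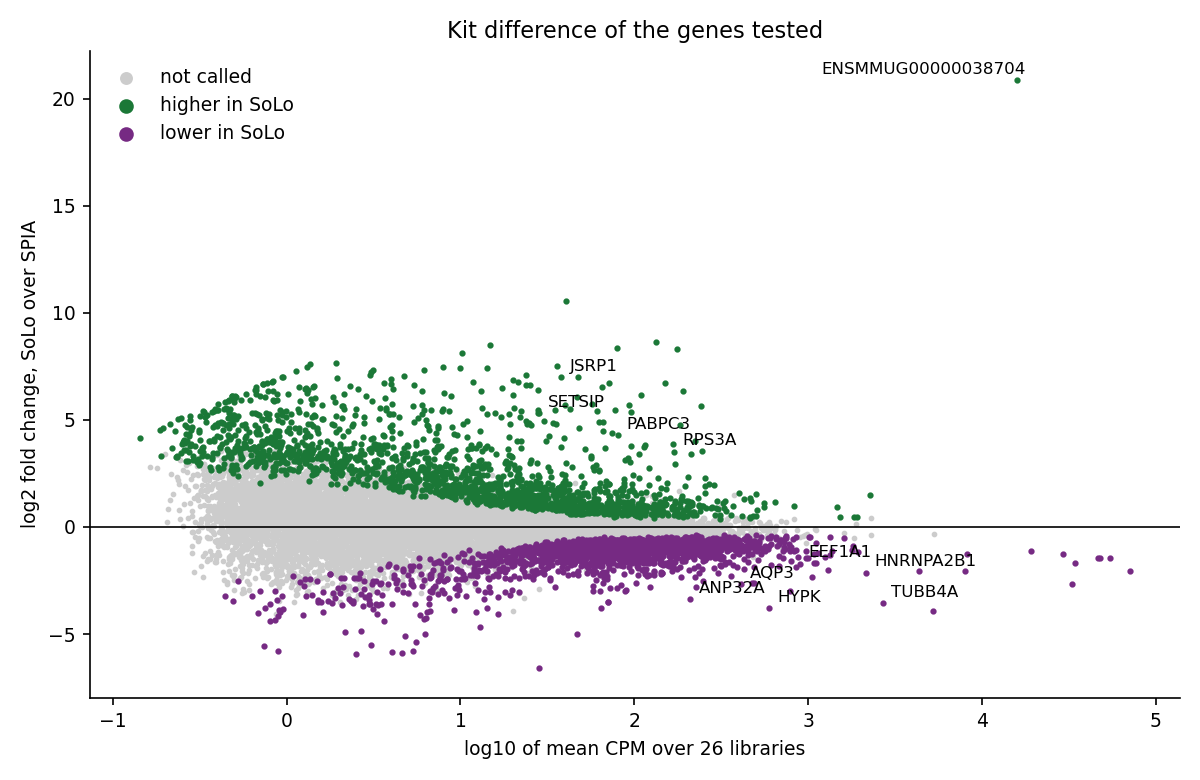
Log2 fold change of SoLo over SPIA (vertical axis) against the log10 of the mean CPM over the 26 libraries (horizontal axis), a point per identifier tested, coloured by its call in edgeR. The 1699 identifiers called lower gather at the right, among the abundant ones, while the 1760 called higher are spread over the whole range of levels.

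The balance between kits moved with the level of a gene. In the lowest quintile of identifiers by mean CPM the median log2 fold change was 0.92, and 14.7% were called higher and 1.21% lower in SoLo. In the middle quintile the median was 0.18, with 11.4% higher and 5.01% lower. In the highest quintile the median was -0.34, with 10.6% higher and 35.6% lower. The share called higher therefore stayed within a few percentage points across levels, while the share called lower grew from level to level. Fewer counts make differences harder to detect for rare genes. A rare identifier could also pass the filter on low counts through 1 kit alone. The part of either in the trend was not tested.

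Identifiers without a gene name took 33.5 ± 6.99% of the counts in SoLo and 46.2 ± 11.9% in SPIA (SD, n = 13 each). The difference within the 11 exact pairs was -13.5 ± 9.53 percentage points. The lower share in SoLo lay in a block of 13 unnamed identifiers, numbered from ENSMMUG00000028670 to ENSMMUG00000028699. The block held 21.5 ± 7.16% of counts in SoLo and 40.9 ± 13% in SPIA, and it was lower in SoLo in 11 of 11 pairs (-20.2 ± 10.4 percentage points, exact sign-flip permutation p = 0.000977, adjusted p = 0.00126 over 9 library measures). That p is the smallest that 11 pairs allow. Within the block, 11 identifiers were called lower in SoLo and 1 higher, with a median log2 fold change of -1.46. ENSMMUG00000028686 had 3278, 10477 and 16096 CPM (lowest, median, highest) in SoLo libraries and 17568, 41942 and 116176 CPM in SPIA libraries, so the kits did not overlap (log2 fold change -2.68 ± 0.19 SE, edgeR adjusted p = 9.58e-12). The exceptions were ENSMMUG00000028684, higher in SoLo at 1.49 ± 0.41 (adjusted p = 0.0101, and 0.0662 over the 11 exact pairs alone), and ENSMMUG00000028680, at -0.34 with adjusted p = 0.346 (0.0333 with the embryo as a replicate block, and 0.0136 without 1 of the SoLo libraries of code 111215). The names of these identifiers were not given by the tables used here.

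A single unnamed identifier, ENSMMUG00000038704, was abundant in every SoLo library and had no count in any SPIA library. It took 1.34%, 3.46% and 7.34% of counts (lowest, median, highest) in SoLo libraries and had 0 counts in the 13 SPIA libraries and in 23 SPIA libraries of other embryos. With a floor of 3 counts per SPIA library, it was at least 35524-fold to at least 218109-fold higher in SoLo over the 11 pairs. At equal depth it was the only identifier with 5 or more counts in all 13 SoLo libraries and 0 in all 13 SPIA libraries. Allowing 1 exception in each kit gave 9 such identifiers, all unnamed, and none in the opposite direction. ENSMMUG00000047399 came close, with 29.7, 83.9 and 161 CPM in SoLo and 0, 0 and 0.465 CPM in SPIA libraries. The largest difference in the other direction was that of ENSMMUG00000047497, with 0.0881, 0.452 and 2.70 CPM in SoLo and 10.3, 49.8 and 159 CPM in SPIA (log2 fold change -6.61 ± 0.51, edgeR adjusted p = 9.34e-12). Outside the block, unnamed identifiers as a whole took more of the SoLo counts, 12 ± 1.63% in SoLo and 5.30 ± 1.10% in SPIA, and still 8.10 ± 0.916% in SoLo without ENSMMUG00000038704.

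**Figure D2:**
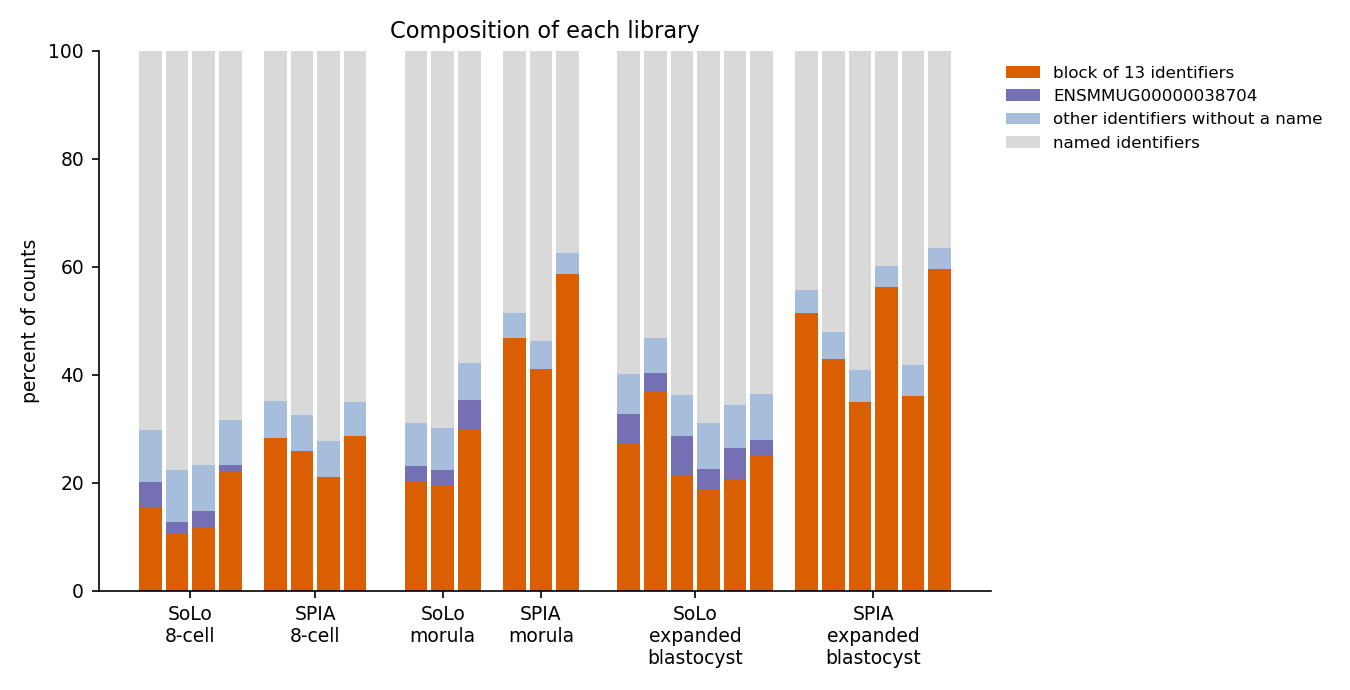
Percent of the counts of each library (horizontal axis: the libraries, SoLo left of SPIA) held by the block of 13 unnamed identifiers, by ENSMMUG00000038704, by the other unnamed identifiers and by named identifiers. The block is taller in the SPIA libraries, 40.9% on average, than in the SoLo libraries, 21.5% on average, and the ENSMMUG00000038704 segment is seen in the SoLo libraries alone.

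The most abundant identifiers held less of the SoLo counts, and more identifiers were detected. The 20 most abundant identifiers of a library took 27.6 ± 7.76% of its counts in SoLo and 43.7 ± 12.2% in SPIA, lower in SoLo in 11 of 11 pairs (-17.0 ± 9.68 percentage points, exact permutation p = 0.000977, adjusted p = 0.00126). Over counts in named identifiers alone the difference was -2.31 percentage points, with the same p. After each library was thinned to 5062138 counts, 14541 ± 1006 identifiers had at least 1 count in SoLo and 12727 ± 912 in SPIA. SoLo detected more in 10 of 11 pairs, by 1730 ± 1245 identifiers (exact permutation p = 0.00293, adjusted p = 0.0033). Thinning equalised the totals only. The block of 13 unnamed identifiers took 21.5% of SoLo and 40.9% of SPIA counts, which left fewer counts for other identifiers in SPIA. The part of this in the difference was not tested. At this depth, identifiers with a mean of 1 to 5 counts were at 0 in 57.3% of cases in SoLo and 73.9% in SPIA. For a mean of 20 to 100 counts the shares at 0 were 5.94% in SoLo and 13.3% in SPIA, and above 500 counts they were 0.0674% in SoLo and 0.306% in SPIA.

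Embryos of a stage lay closer together in SoLo, a description without a test. The median SD of log2(CPM + 1) over the embryos of the exact pairs, taken over 11880 genes with at least 1 CPM on average in both kits, was 0.693 in SoLo and 1.18 in SPIA at the 8-cell stage. It was 0.599 in SoLo and 0.716 in SPIA morulas, and 0.376 in SoLo and 0.688 in SPIA expanded blastocysts. Across 14873 identifiers, the log2(CPM + 1) values of the SoLo and SPIA library of an embryo correlated at 0.765 to 0.931 (Pearson's r, median 0.846, with genes that are not independent replicates). Different embryos of a stage had a median correlation within a kit of 0.854 in SoLo and 0.769 in SPIA 8-cell embryos, 0.885 in SoLo and 0.853 in SPIA morulas, and 0.943 in SoLo and 0.889 in SPIA expanded blastocysts. In 6 of 11 pairs, the SPIA library closest to a SoLo library of the same stage was that of the same embryo.

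**Figure D3:**
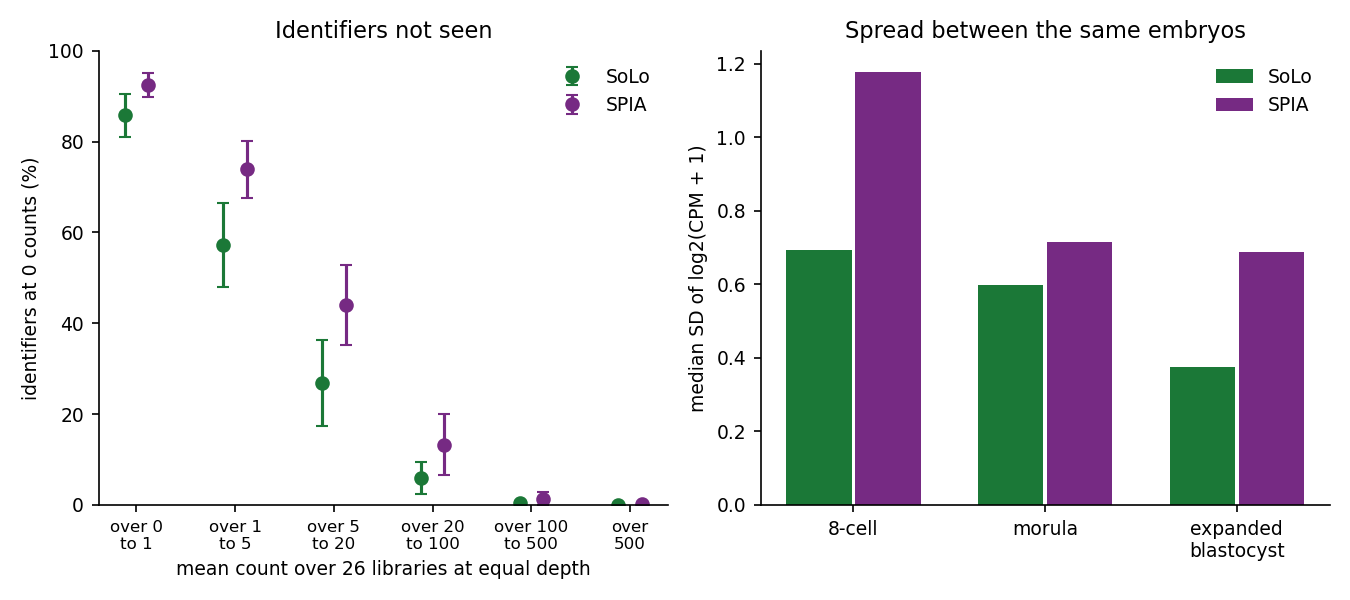
Left: percent of identifiers at 0 after thinning to equal total counts (vertical axis) by mean count bin (horizontal axis), as mean and SD over 13 libraries of each kit. Right: median SD of log2(CPM + 1) between embryos of a stage in the exact pairs. SoLo lies below SPIA in every bin and at each of the 3 stages.

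JSRP1, HYPK and TUBB4A mark the difference between the kits; they had been picked on these same counts, so their values are a description. JSRP1 encodes a protein of the junctional sarcoplasmic reticulum of skeletal muscle. It had 47.1, 77.3 and 108 CPM (lowest, median, highest) in SoLo and 0, 0.465 and 1.59 CPM in SPIA, a log2 fold change of 6.98 ± 0.46 (SE). The kits did not overlap, and the 23 SPIA libraries of other embryos, at 0 to 1.89 CPM, were also below every SoLo library. HYPK, a partner of the N-terminal acetyltransferase complex NatA, had 30.2, 65.9 and 114 CPM in SoLo and 148, 908 and 3049.9 CPM in SPIA (-3.78 ± 0.25), again without overlap; the other SPIA libraries ranged from 4.08 to 3201 CPM. TUBB4A, a beta tubulin known from brain, had 83.3, 353 and 946 CPM in SoLo and 657, 3827 and 13843 CPM in SPIA (-3.54 ± 0.42). Its highest SoLo library overlapped the lowest SPIA library, but SoLo was lower in 11 of 11 pairs. By stage, the log2 fold changes of JSRP1 were 5.96 in 8-cell embryos, 6.57 in morulas and 8.27 in expanded blastocysts, those of HYPK -4.41, -4.06 and -3.22, and those of TUBB4A -3.94, -4.31 and -2.90.

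**Figure D4:**
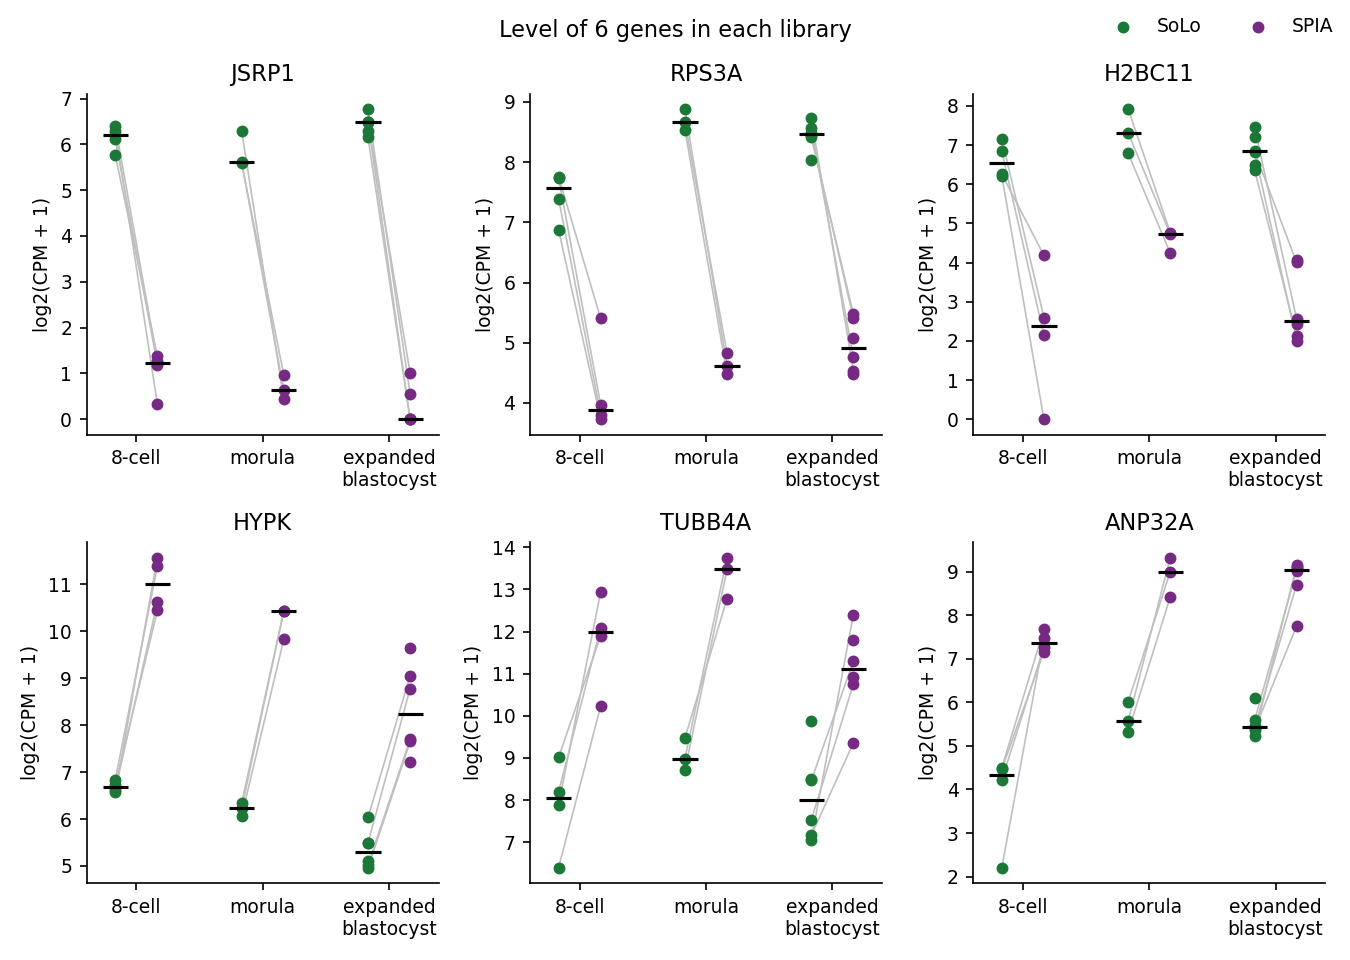
Log2(CPM + 1) of JSRP1, RPS3A, H2BC11, HYPK, TUBB4A and ANP32A in each library, SoLo (green) left of SPIA (purple). Points are libraries, lines join the 11 exact pairs and black bars are medians; every line of the first 3 genes falls toward SPIA and every line of the last 3 rises toward SPIA.

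Other named genes higher in SoLo in all 11 pairs included several members of families with close copies. A copy of RPSA, a ribosomal protein and laminin receptor (ENSMMUG00000004941), had 13, 50.7 and 80.3 CPM in SoLo and 0, 0.215 and 2.09 CPM in SPIA (log2 fold change 6.62 ± 0.52, edgeR adjusted p = 1.13e-11). The other RPSA copy, ENSMMUG00000022965, had 13.7, 38.8 and 102 CPM in SoLo and 7.57, 16.7 and 85.4 CPM in SPIA, at 0.80 ± 0.38 (adjusted p = 0.134, and 0.00429 at 1.17 without the 8-cell SPIA library 020816_08). SETSIP, in humans an intronless copy of SET, had 25.7, 50.4 and 95.5 CPM in SoLo and 0, 0.552 and 3.84 CPM in SPIA (5.33 ± 0.47, adjusted p = 1.27e-10), with no overlap. SET itself, a histone chaperone, was lower in SoLo at -0.47 ± 0.17 (adjusted p = 0.0379, and 0.0658 with the embryo as a replicate block), a call that also ended without any of 10 single libraries. PABPC3, in humans an intronless copy of the poly(A)-binding protein gene PABPC1, had 38.7, 178 and 249.9 CPM in SoLo and 0.465, 3.49 and 45.6 CPM in SPIA (4.27 ± 0.62, adjusted p = 8.89e-06). PABPC1 was at -0.14 ± 0.16 (adjusted p = 0.58). Counts of such copies are uncertain, because reads can be split between near-identical genes in a way that depends on the counting.

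TRNAU1AP, which binds the selenocysteine tRNA, had 117, 428 and 1009 CPM in SoLo and 12.1, 34.1 and 99.0 CPM in SPIA (log2 fold change 3.55 ± 0.35, edgeR adjusted p = 8.96e-09). The kits did not overlap. In the opposite direction, FKBP2, a prolyl isomerase of the endoplasmic reticulum, had 0, 9.05 and 14.9 CPM in SoLo and 23.5, 113 and 198 CPM in SPIA (-3.79 ± 0.44, adjusted p = 9.03e-08). ANP32A, an acidic nuclear phosphoprotein, had 3.61, 40.2 and 67.8 CPM in SoLo and 142, 416 and 639.7 CPM in SPIA (-3.35 ± 0.21, adjusted p = 8.65e-14). Neither gene overlapped between kits. TAF15, an RNA-binding protein of the FET family, had 0.626, 5.56 and 9.13 CPM in SoLo and 14.6, 30.4 and 58.1 CPM in SPIA (-2.95 ± 0.36), with no overlap. RPAIN, which imports replication protein A into the nucleus, was at -3.01 ± 0.25 without overlap between kits; it overlaps C1QBP in the RefSeq annotation, and C1QBP was at -0.87 ± 0.19. FAM89A (-3.37 ± 0.69), the membrane-bending PACSIN3 (-2.96 ± 0.38) and GASK1A (-2.85 ± 0.52) were also lower in SoLo in all pairs, with kits that overlapped.

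These statements on overlap refer to the 26 libraries compared. The 23 SPIA libraries of other embryos stayed outside the SoLo range for JSRP1, the RPSA copy ENSMMUG00000004941, H2BC11, RPS3A and RPL32. At least 1 of them entered it for SETSIP, at up to 35.8 CPM, TRNAU1AP, at up to 158 CPM, and EIF3M, at up to 273 CPM. For genes lower in SoLo, at least 1 of them also reached into the SoLo range or below it. The lowest values were 4.08 CPM for HYPK, 0.619 CPM for FKBP2, 3.84 CPM for ANP32A and 0.619 CPM for TAF15. They were 4.83 CPM for RPAIN, 342 CPM for EEF1A1 and 618 CPM for HNRNPA2B1. The lowest values of EIF5B, 426 CPM, and SRSF5, 149 CPM, were within the SoLo range as well. Such extremes can come from 1 library and do not say how many of the 23 entered the range. For each of these genes the median of the 23 libraries stayed outside the SoLo range, on the SPIA side. It was 943 CPM for HYPK, 436 CPM for ANP32A, 1363 CPM for EEF1A1 and 34.4 CPM for TRNAU1AP.

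Among genes of the translation machinery, cytosolic ribosomal protein genes took a larger share of SoLo libraries. The share was 1.53 ± 0.222% of counts in SoLo and 0.776 ± 0.211% in SPIA, higher in SoLo in 11 of 11 pairs by 0.735 ± 0.269 percentage points (exact permutation p = 0.000977, adjusted p = 0.00126). Over counts in named identifiers alone the difference was 0.769 percentage points, with the same adjusted p. Shares of named lists also depend on the unnamed identifiers, which took 33.5% of counts in SoLo and 46.2% in SPIA. C2H2 zinc finger genes, with a median log2 fold change of -0.13, also had a larger share in SoLo (1.16%) than in SPIA (0.967%). Of 70 cytosolic ribosomal protein identifiers, 65 were tested. Among these, 26 (40%) were higher and 12 (18.5%) lower in SoLo, beside 11.8% higher and 11.4% lower over all identifiers. The median log2 fold change was 0.37 beside 0.11 over all identifiers. With the embryo as a replicate block the median was 0.27 beside 0.30 over all identifiers, with 26 higher and 15 lower, and over the 11 exact pairs alone it was 0.16 beside 0.08. RPS3A had 117, 348 and 471 CPM in SoLo and 12.3, 23.6 and 43.5 CPM in SPIA (3.52 ± 0.21, edgeR adjusted p = 1.71e-14). In the 23 SPIA libraries of other embryos RPS3A stayed between 6.12 and 100.0 CPM, below every SoLo library. RPL32 had 116, 194 and 359 CPM in SoLo and 7.50, 18.8 and 29.4 CPM in SPIA (3.42 ± 0.23, adjusted p = 2.06e-13), also with no overlap. RPL15, at 3.64 ± 0.45, was higher in 11 of 11 pairs.

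Ribosomal protein genes did not move as a single group, as RPL31 and RPL12 were lower in SoLo. RPL31 had 4.91, 10.9 and 28.2 CPM in SoLo and 5.55, 89.1 and 267 CPM in SPIA (log2 fold change -2.98 ± 0.41, edgeR adjusted p = 1.59e-06). RPL12 had 1.58, 9.92 and 22.2 CPM in SoLo and 24.2, 36.9 and 72.9 CPM in SPIA (-2.22 ± 0.30, adjusted p = 6.2e-07). Both encode proteins of the large subunit, as do RPL32 and RPL15. Mitochondrial ribosomal protein genes were evenly divided, with 10 higher and 10 lower (22.7% each) of 44 tested (46 identifiers) and a median of 0.12. Over all identifiers tested, 11.8% were higher and 11.4% lower. MRPL34 was higher at 3.15 ± 0.44 and MRPL51 lower at -2.21 ± 0.19. Of 57 translation factor genes, all tested, 9 (15.8%) were higher and 12 (21.1%) lower (median -0.03). EEF1A1, the elongation factor that brings aminoacyl-tRNA to the ribosome, had 299.7, 437 and 545 CPM in SoLo and 827, 1279.9 and 2457 CPM in SPIA (-1.71 ± 0.14, adjusted p = 1.24e-11), with no overlap. The initiation factors EIF5B (-1.88 ± 0.16) and EIF3M (1.29 ± 0.15) moved in opposite directions, each without overlap between kits; EIF3M overlaps CCDC73 in the RefSeq annotation.

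Splicing factors of the SR and hnRNP families, which bind pre-mRNA and choose splice sites, were mostly lower in SoLo. All 27 were tested, and 15 (55.6%) were lower and 4 (14.8%) higher, beside 11.4% lower and 11.8% higher over all identifiers. The median log2 fold change was -0.73. These genes took 0.810 ± 0.215% of counts in SoLo and 1.04 ± 0.498% in SPIA (SD, n = 13 each), a difference that was not tested. HNRNPA2B1 had 557, 772 and 1103 CPM in SoLo and 1533, 3172 and 7408 CPM in SPIA (-2.14 ± 0.16, edgeR adjusted p = 3.32e-12). SRSF5 had 101, 131 and 167 CPM in SoLo and 178, 357 and 763 CPM in SPIA (-1.44 ± 0.16, adjusted p = 1.55e-08). Neither overlapped between kits. SRSF6 (0.85 ± 0.24, adjusted p = 0.00857) and HNRNPH2 (0.81 ± 0.26, adjusted p = 0.0206) were higher in SoLo, though with adjusted p of 0.0566 for SRSF6 and 0.056 for HNRNPH2 over the 11 exact pairs alone. The count of lower genes was 14 to 16 under the alternatives tried, while the count of higher genes was 0 to 4. Many of these genes are abundant, and the highest quintile of all identifiers had 35.6% called lower. Of 15 Sm and LSm genes of the core spliceosome tested (16 identifiers), 6 (40%) were higher and 3 (20%) lower (median 0.38). Among them SNRPE was at 1.55 ± 0.27, LSM7 at 2.83 ± 0.51 and LSM12 at -1.39 ± 0.20.

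Among histone genes, 6 of the 10 whose mRNAs end in a stem-loop and not in a poly(A) tail were higher in SoLo. Of these 10 replication-dependent cluster genes, all tested, 6 (60%) were higher and 0 lower (median 1.98). Of 9 variant and linker genes outside that group, 3 (33.3%) were higher and 2 (22.2%) lower (median 0.33). Over all identifiers tested, 11.8% were higher and 11.4% lower. H2AC15, at -2.21 with adjusted p = 0.0769, went the other way and was called lower in DESeq2 (adjusted p = 0.0302). This division of the 19 histone genes was added after their values had been seen. H2BC11 had 73.3, 113 and 242 CPM in SoLo and 0, 5.05 and 26.1 CPM in SPIA (3.71 ± 0.42, edgeR adjusted p = 3.73e-08), with no overlap. H1-3 had 14.1, 212 and 359 CPM in SoLo and 0, 14.6 and 64.3 CPM in SPIA (3.84 ± 0.61, adjusted p = 4.1e-05), with an overlap. H2BC18, at 2.74 ± 0.34, overlaps FCGR1A in the RefSeq annotation. The variants H2AZ1 (-1.10 ± 0.22, adjusted p = 0.000273) and H2AZ2 (-0.98 ± 0.23, adjusted p = 0.00168) were the 2 called lower in SoLo outside the cluster group, where 3 were higher. Each was higher in SoLo in 2 of 11 pairs. Neither was called within expanded blastocysts (H2AZ1 -0.38, edgeR adjusted p = 0.407, and H2AZ2 -0.51, adjusted p = 0.352). The part of the poly(A) tail in these differences was not tested. Histone genes together took 0.276 ± 0.102% of counts in SoLo and 0.185 ± 0.167% in SPIA, higher in SoLo in 10 of 11 pairs (exact permutation p = 0.0186, adjusted p = 0.0186), a call that did not hold over named identifiers alone. At the 8-cell stage the share was 0.393% in SoLo and 0.390% in SPIA, while in expanded blastocysts it was 0.204% in SoLo and 0.0573% in SPIA. Histone genes of a cluster are near-identical, so counts of single members are uncertain.

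**Figure D5:**
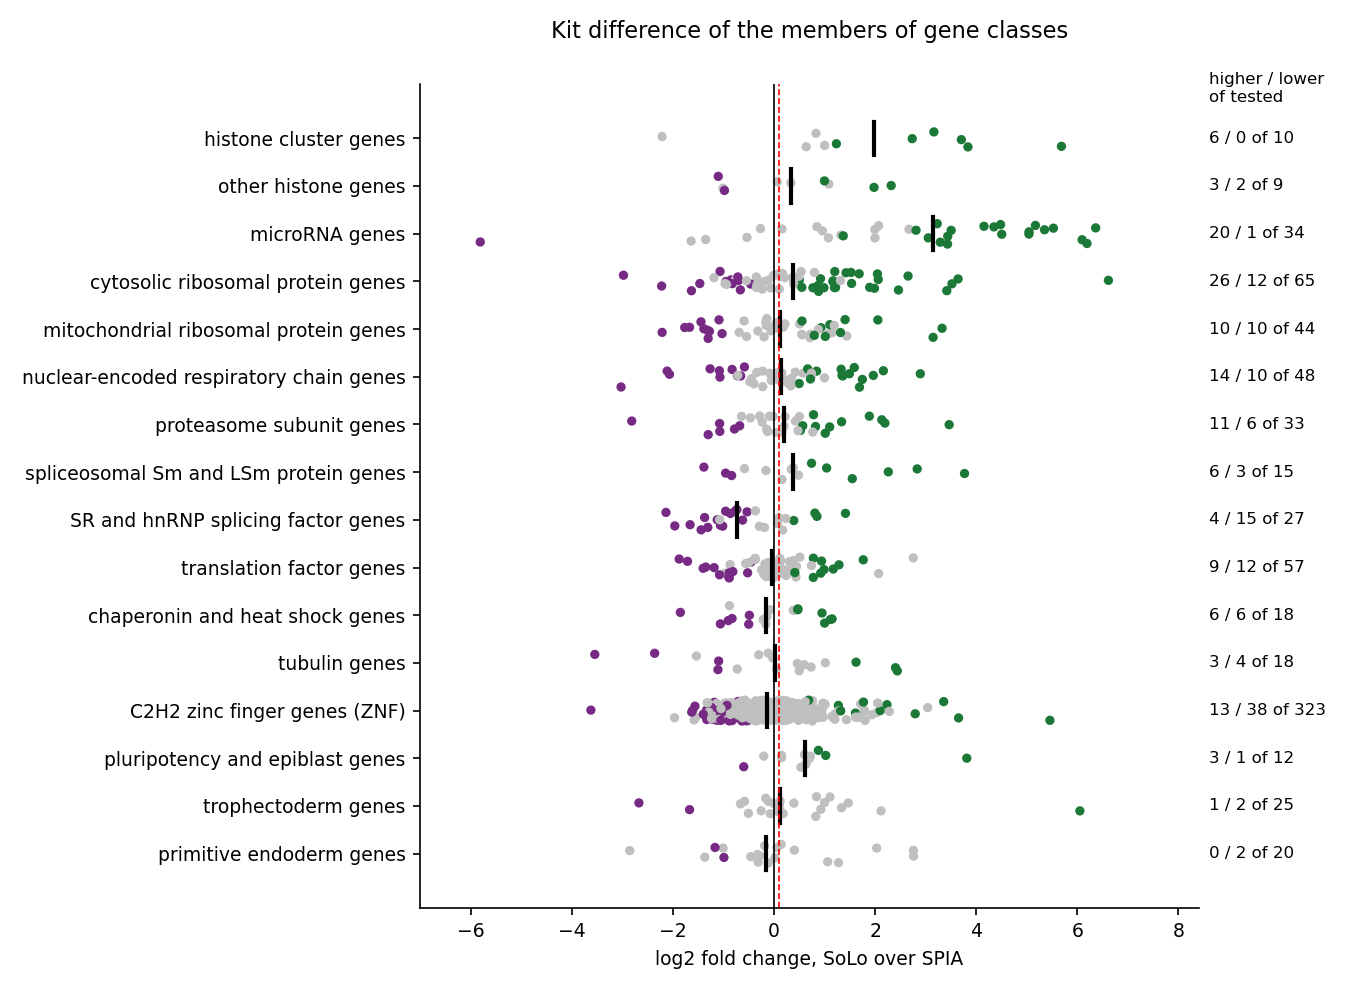
Log2 fold change of SoLo over SPIA for each tested member of 16 gene lists (green called higher, purple called lower, grey not called), with the list's median as a black bar, the median of all identifiers (0.11) as a red dashed line and the numbers called higher and lower at the right. Most points of the SR and hnRNP list lie left of the line and most of the histone cluster and microRNA lists lie right of it, while the other lists have members on both sides.

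Energy metabolism and protein turnover had genes on both sides. Nuclear-encoded respiratory chain genes took 0.447 ± 0.145% of counts in SoLo and 0.254 ± 0.0645% in SPIA, higher in SoLo in 11 of 11 pairs (exact permutation p = 0.000977, adjusted p = 0.00126). Of 48 tested (50 identifiers), 14 (29.2%) were higher and 10 (20.8%) lower, with a median log2 fold change of 0.14. Over all identifiers tested, 11.8% were higher and 11.4% lower. CYC1, the cytochrome c1 of complex III, was higher at 2.16 ± 0.24, as was the ATP synthase gamma subunit ATP5F1C at 1.59 ± 0.18. Their partners ATP5MC1, a subunit of the ATP synthase membrane ring (-3.03 ± 0.54), and NDUFB2, a complex I subunit (-2.11 ± 0.39), were lower. Of 33 proteasome subunit genes tested (34 identifiers), 11 (33.3%) were higher and 6 (18.2%) lower (median 0.20), against 4 higher and 5 lower in the 11 exact pairs alone. PSMA1 (1.01 ± 0.18) and PSMC1 (2.13 ± 0.45) were higher, and PSMC2 was lower (-1.30 ± 0.19). Of 18 chaperonin and heat shock genes tested (20 identifiers), 6 were higher and 6 lower (33.3% each). The chaperonin subunits CCT8 (1.12 ± 0.15) and CCT6A (0.95 ± 0.14) were higher, while the mitochondrial co-chaperonin HSPE1 (-1.85 ± 0.22) and the endoplasmic reticulum chaperone HSP90B1 (-1.06 ± 0.14) were lower.

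Close relatives also differed in direction in the tubulin family, where 3 (16.7%) of 18 tested genes (19 identifiers) were higher and 4 (22.2%) lower. TUBB, a widely expressed beta tubulin, was higher in SoLo at 2.40 ± 0.29 (edgeR adjusted p = 1.16e-07), with 17.2, 67.5 and 125 CPM in SoLo and 3.35, 9.84 and 22.9 CPM in SPIA. TUBB1 was lower at -1.09 ± 0.17 and TUBA1C at -2.36 ± 0.43, besides TUBB4A. Solute carrier genes, which encode membrane transporters, had 19 higher (7.82%) and 18 lower (7.41%) of 243 tested (328 identifiers). Over all identifiers tested, 11.8% were higher and 11.4% lower. SLC2A3, a glucose transporter, was higher at 0.98 ± 0.13, and SLC31A1, a copper importer, lower at -2.84 ± 0.37. Of 323 C2H2 zinc finger genes tested (334 identifiers), 13 (4.02%) were higher and 38 (11.8%) lower. The share called lower was thus near the 11.4% of all identifiers, and the share called higher was below their 11.8%. The median of -0.13 was 0.19 with the embryo as a replicate block (13 higher and 23 lower) and 0.12 in limma voom. ZNF787 was higher at 5.46 ± 0.84, from 7.12, 12.7 and 19.7 CPM in SoLo and 0, 0 and 2.84 CPM in SPIA, and ZNF257 (-1.03 ± 0.15) and ZNF106 (-1.21 ± 0.17) were lower. Of 35 collagen genes (41 identifiers) and 10 keratin genes (40 identifiers) tested, 1 each was higher and 0 lower, COL4A4 and KRT16. Neither call held with the embryo as a replicate block, and COL4A4 had adjusted p = 0.121 without the expanded blastocyst SoLo library 112415_03. The median log2 fold change of collagens was 1.28, and 0.78 without the 3 8-cell embryos with cumulus markers and 0.65 in limma voom. That of keratins was 1.16, and 0.72 in limma voom. With the stricter filter on low counts, 8 collagen genes had a median of 0.91 and 4 keratin genes one of 0.79. The lowest quintile of all identifiers by mean CPM had a median of 0.92. Of 9 cyclin genes only CCND3 was called, higher at 1.35, and not with the embryo as a replicate block. The calls of KRT16 and CCND3 also ended under most of the fits that left out a single library.

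MicroRNA loci were mostly too low to test. Of 421 identifiers, 34 passed the filter on low counts, and 20 were called higher and 1 lower. A locus silent in SPIA could pass only through SoLo libraries, so these counts describe the loci that passed and no more. mml-mir-372, whose human counterpart is known from embryonic stem cells, had 0, 2.20 and 5.96 CPM in SoLo and 0, 0 and 0.465 CPM in SPIA, with counts in 11 SoLo and 2 SPIA libraries. mml-let-7f-2 had 0, 1.23 and 4.26 CPM in SoLo and 0 in all 13 SPIA libraries. Metazoa_SRP (ENSMMUG00000033677), an annotated signal recognition particle RNA, was higher at 5.07, a call that did not hold in DESeq2 (adjusted p = 0.103) or limma voom (adjusted p = 0.236). No small nucleolar or spliceosomal RNA of the list passed the filter apart from it. Identifiers at 0 in every SPIA library numbered 69 among all tested, and 0 were at 0 in every SoLo library.

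Among lists tied to the biology of the embryo, the oocyte, pluripotency and trophectoderm lists had members called in both directions. The shares higher and lower were 15.6% and 9.38% for oocyte, 25% and 8.33% for pluripotency and 4% and 8% for trophectoderm genes. Over all identifiers tested they were 11.8% and 11.4%. The lists are small, and their shares were not compared by a test. Of 32 oocyte and maternal-effect genes tested (33 identifiers), 5 were higher and 3 lower (median log2 fold change 0.11). NLRP2, a maternal-effect gene, had 235, 2719 and 3676 CPM in SoLo and 94.9, 1110.0 and 2092 CPM in SPIA (0.93 ± 0.16, edgeR adjusted p = 4.67e-05); it overlaps NLRP7 in the RefSeq annotation. TCL1B was higher at 2.65 ± 0.57, and KHDC3L of the subcortical maternal complex (-1.17 ± 0.32) and the zona pellucida gene ZP2 (-1.63 ± 0.46) were lower. Without the 3 8-cell embryos with cumulus markers, KHDC3L had adjusted p = 0.0626 and ZP2 adjusted p = 0.0538. Of 7 genes of 8-cell genome activation, edgeR called 0 (median 0.28), and with the embryo as a replicate block it called 1 higher and 1 lower (median 0.039). Of 12 pluripotency and epiblast genes, 3 were higher and 1 lower, and with the embryo as a replicate block 0 were higher and 1 lower. SALL4 was lower at -0.60 ± 0.13, KLF4 higher at 1.02 ± 0.28 (adjusted p = 0.0082, and 0.0674 with the block) and NODAL higher at 3.81 from at most 7.24 CPM in SoLo and 0.342 CPM in SPIA (adjusted p = 0.108 with the block).

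Among 25 trophectoderm genes tested (26 identifiers), 1 was higher and 2 lower in SoLo. AQP3, a water and glycerol channel, had 7.66, 36.7 and 252 CPM in SoLo and 9.43, 299.5 and 2585 CPM in SPIA, and it was lower in SoLo in 11 of 11 pairs (-2.67 ± 0.41, edgeR adjusted p = 2.59e-05). TFAP2A, a transcription factor of trophoblast, was lower at -1.67 ± 0.53 (adjusted p = 0.0208). CGA, the alpha subunit of chorionic gonadotropin, was called higher from counts in 4 SoLo libraries, up to 7.31 CPM, and 0 in all 13 SPIA libraries (adjusted p = 0.0134). Without the 3 8-cell embryos with cumulus markers, TFAP2A had adjusted p = 0.117 and CGA 0.141, and without the expanded blastocyst SPIA library 112415_03 TFAP2A had 0.0926. Of 20 primitive endoderm genes, 2 were lower, namely the receptor PDGFRA (-1.17 ± 0.19) and the transcription factor GATA6 (-0.99 ± 0.21), each lower in SoLo in 11 of 11 pairs. Of sperm markers, 4 of 11 were tested and 1 was lower, ACR (-3.99 ± 1.11). Of blood and immune markers, 6 of 13 were tested and 1 was lower, TYROBP (-2.98 ± 0.65), while the T cell gene CD3E and the pan-leukocyte gene PTPRC had a median of 0 in each kit at each stage. Summed blood and immune markers had 4.00 to 62.1 CPM in SoLo and 12.6 to 105 CPM in SPIA libraries.

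Within stages, the kits differed for 934 identifiers higher (6.28%) and 1164 lower (7.83%) in 8-cell embryos, for 208 higher (1.4%) and 181 lower (1.22%) in morulas, and for 739 higher (4.97%) and 693 lower (4.66%) in expanded blastocysts. The 307 identifiers called at all 3 stages had 1 direction throughout. The blastocyst total of 1432 was 698 with the embryo as a replicate block over the 4 exact pairs. The morula total of 389 was between 217 and 240 without either library of morula 021016_02 or 021016_03. Cytosolic ribosomal protein genes had 18 higher and 12 lower at the 8-cell stage (median log2 fold change -0.02), 13 and 2 in morulas (0.18), and 26 and 3 in expanded blastocysts (0.60). SR and hnRNP genes had 1 higher and 15 lower in 8-cell embryos, 0 and 5 in morulas, and 2 and 12 in expanded blastocysts. These counts per stage come from unequal numbers of embryos and were not compared by a test.

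The test of the difference itself, the interaction of kit with stage, called 0 of 14873 identifiers in edgeR, with 1566 (10.5%) at an unadjusted p under 0.05, 3 called with the embryo as a replicate block and 121 in DESeq2. Without the 8-cell SPIA library 112815_02 the count was 69, without the 8-cell SPIA library 020816_07 it was 9, and without the morula SoLo library 022916_01 it was 5. The 5 named genes with the smallest p had an adjusted p between 0.101 and 0.109, and all 5 passed the threshold without the 8-cell SPIA library 112815_02. Most of them stood apart at the 8-cell stage. PLD1, a phospholipase, averaged 7.48 ± 8.05 CPM in SoLo and 0.0229 ± 0.0457 CPM in SPIA 8-cell libraries (SD, n = 4 each), and 26.8 ± 11.6 CPM in SoLo and 27.1 ± 5.85 CPM in SPIA expanded blastocysts (n = 6 each). Its log2 fold changes were 7.56, -0.04 and -0.02 from the 8-cell stage to the expanded blastocyst. The receptor kinase gene GRK3 (5.10, 0.56 and -0.60), the basement membrane gene AGRN (5.16, -0.93 and 0.81) and the zinc finger gene ZXDC (4.63, 0.53 and -0.05) had a like order. SYVN1, a ubiquitin ligase of the endoplasmic reticulum, had -3.34, -1.64 and 0.20 and, over all stages, -1.29 ± 0.46 (adjusted p = 0.0411, and 0.0878 with the embryo as a replicate block); it overlaps FAU in the RefSeq annotation.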

How the data were processed

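The authors deposited raw counts per gene identifier as a single table. HISAT2 and DESeq2 are named in the submitters' processing notes. The counter, genome build, annotation and strand setting were not given in the sources used here. Genes that overlap, lie antisense or are near-identical may therefore share counts. Of 52 columns, 49 were matched to samples by title, 2 of them (code 111215, SoLo) by group, and 3 columns that matched no title were not used; 3 samples were not analysed here. Names covered 15078 of 26309 identifiers.

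The main test was edgeR 4.0.16 in R 4.3.3: TMM scaling, filterByExpr by kit and stage, robust glmQLFit, glmQLFTest with stage as covariate, and Benjamini-Hochberg adjustment over all identifiers tested, called at 0.05. Within-stage contrasts and the interaction came from a fit with a mean per stage and kit. Each standard error is the log2 fold change over the root of its F statistic. CPM are scaled by TMM, also for the 23 other SPIA libraries. The TMM factors ran from 1.00 to 1.57 in SoLo and from 0.591 to 1.02 in SPIA libraries. Fold changes therefore lie lower than shares of counts alone would give. Library measures were tested over the 11 exact pairs by exact two-sided sign-flip permutation. Limma 3.58.1 (voom, embryo as random block, estimated correlation 0.123), DESeq2 1.42.0, other filters, scalings and subsets were alternatives. Python 3.11.15, numpy 2.4.6, pandas 2.3.3, scipy 1.17.1 and matplotlib 3.10.9 made the remaining values and plots. Functions were tested on simulated data, with a spread estimated without the kit in the model. There the main test recovered 3% of genes changed by 1 and 30% of those changed by 2 on the log2 scale. Real kit differences enlarge that spread, so these percentages can understate what the test recovers in the real counts. A gene that was not called may still differ between the kits.

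Same stage, code and number in a title were read as the same embryo. Deviations from group means correlated between the libraries of a pair at -0.0197 to 0.426 (median 0.224), above 0.1 in 10 of 11 pairs; the exception was expanded blastocyst 111715_02. By their labels, libraries of a group are different embryos, and p-values measure the spread between these libraries. Whether molecular identifiers were used in the counting is not known here, so floors of 3 counts cover counting error only. Depth was 8.04 ± 1.29 M counts in SoLo and 8.02 ± 4.39 M in SPIA.

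The genes in the text were JSRP1, HYPK and TUBB4A; the 10 named genes with the largest log2 fold change in each direction among called genes with a mean of at least 10 CPM and the same sign in all 11 pairs; up to 2 called higher and 2 called lower per gene list by smallest p; the 5 named genes with smallest interaction p; and, chosen after their values were seen, the related copies, overlapping neighbours and unnamed identifiers. The genes, the lists and the comparison were chosen with earlier results of these data known.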

Additional observations from a re-analysis of the deposited data

Results flagged for a closer look

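In groups of 4 to 6 libraries, the library at an end of the range was checked for a gap to its neighbour beyond Dixon's 95% critical value. This held in 5 of 116 groups, which is close to the share of about 1 in 20 that chance gives. In the expanded blastocyst SPIA group, 111215_01 had 2.09 CPM of RPSA (ENSMMUG00000004941), the highest of 6, from 8 counts; the SoLo expanded blastocysts had at least 42.5 CPM. In the 8-cell SPIA group, 020816_06 had 41.4 CPM of RPS3A, above the other libraries at 12.3 to 14.6 CPM; its SoLo partner had 216 CPM. ANP32A was lowest in 8-cell SoLo library 020816_06, at 3.61 CPM beside 17.6 to 21.5 CPM in the other 3, and lowest among expanded blastocyst SPIA libraries in 111715_01, at 215 CPM beside 416 to 566 CPM. RPL31 was lowest in 8-cell SPIA library 112815_02, at 5.55 CPM beside 113 to 188 CPM; the SoLo library of that embryo, at 4.91 CPM, was also the lowest of its group.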

How the results depend on the processing

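The count of 3459 called identifiers ran from 2423 over named identifiers alone to 4584 in limma voom, and from 3139 to 3655 without single libraries; no call changed sign. The median log2 fold change of all genes was 0.11, 0.30 with the replicate block, 0.20 in voom and -0.01 with the stricter filter. The 8-cell count was 1574 to 2477 without single libraries. The morula count of 389 was 930 in DESeq2 and 217 to 531 without single libraries (217 without SoLo 021016_02, 224 without SPIA 021016_02, 237 without SoLo 021016_03, 240 without SPIA 021016_03). The expanded blastocyst count of 1432 was 698 with the replicate block, 941 without both libraries of 111715_02 (an alternative chosen after seeing the data) and 1147 to 1713 without single libraries. The interaction count of 0 was 1 with the stricter filter, 3 with the replicate block, 121 in DESeq2 and 0 to 69 without single libraries (69 without 8-cell SPIA 112815_02, 9 without 8-cell SPIA 020816_07, 5 without morula SoLo 022916_01, 1 without 8-cell SoLo 020816_08). The difference in histone share was 0.0736 percentage points over named identifiers (adjusted p = 0.116) and 0.0694 to 0.104 without single pairs. Without single pairs, differences were 1590.2 to 1949.9 for identifiers detected, 0.681 to 0.770 for ribosomal share, 0.156 to 0.193 for respiratory share, -14.5 to -11.9 for unnamed share and -18.1 to -15.4 for the 20 most abundant (-2.31 over named identifiers).

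Without the 3 8-cell embryos with cumulus markers, TUBA1A was at 0.0088 and PABPC1 at 0.095, neither called in either fit. The causes were not tested. Among the genes named, the replicate block ended the calls of KLF4, COL4A4, KRT16, NODAL, CCND3, SET and SYVN1, gave that of ENSMMUG00000028680 and changed no other among those tested there. ENSMMUG00000038704 had adjusted p = 0.586 in voom. Over all genes named and their alternatives, 4161 values kept direction and side of the threshold, 92 were weaker, 25 stronger and 2 reversed. The comparison by protein length and residue composition was not run. Low counts limit what can be said of microRNAs.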
